A study of Homo sapiens with 24 samples.

Results

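The genes described here are the collagen chains and the enzymes that process them, followed in an immortalized human mammary epithelial line, HMLE, that carried either LacZ or RBMS3. The collagen chains were every gene whose symbol has the form COL, number, A, number, which gave 44 genes. To these were added 22 named genes for the prolyl 4-hydroxylases, the prolyl 3-hydroxylase complex, the lysyl hydroxylases, the collagen chaperone, the procollagen proteinases and the lysyl oxidases. Together they made 66 of the 38849 genes in the expression table. Of these, 42 had a mean of at least 10 normalized counts over the 24 libraries and were tested, 22 of them chains and 20 of them enzymes.

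The study compared HMLE/LacZ cells, the control, with HMLE/RBMS3 cells, which over-express RBMS3, an RNA-binding protein. Both were treated with actinomycin D at 10 µg/mL, a drug that blocks transcription, and RNA was taken at 0, 90, 180 and 360 min, so that the fate of RNA already made could be followed. Each of the 8 groups had 3 libraries, and all 24 were QuantSeq libraries, which read the 3′ end of polyadenylated RNA. The sources used here do not say what drives each transgene or whether a line is 1 clone. Nor do they say whether the libraries within a group stem from separate cultures; p-values therefore reflect spread among libraries, which may be technical. Because the values were normalized between libraries, a change over time in actinomycin D is a change relative to the other transcripts of that library and not an absolute loss of RNA.

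Collagens are made of 3 chains wound into a triple helix. In the endoplasmic reticulum, prolyl and lysyl residues of the chains are hydroxylated and some hydroxylysines are glycosylated, and the chaperone SERPINH1 (HSP47) binds the folded helix. Outside the cell, proteinases remove the propeptides of the fibrillar types, and lysyl oxidases start the cross-links between molecules. Fibrillar collagens are best known from fibroblasts and other mesenchymal cells, whereas type IV networks lie in the basement membrane under epithelia and COL17A1 sits in the hemidesmosomes that fasten basal epithelial cells to it.

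Depth implied by the table was between 4405790 and 9727284 reads a library, and 14193 to 15697 genes had a value above 0. RBMS3 itself stood between 27.6 and 165 normalized counts in the 12 LacZ libraries and between 174 and 358 in the 12 RBMS3 libraries, without overlap. For 12 of the 24 libraries the sample that the archive records for the deposited read file and the name of that file disagree. All 24 table columns were reproduced best by the file of the same name, and the values below come from the table columns, matched to samples by title. LacZ 0 min replicate 2 stood apart from its group, where the lowest correlation between libraries was 0.909, against 0.937 or more in the other 7 groups. In both lines the 0 min libraries stood apart from the later ones on the second principal component of all tested genes. They lay at 45.2 or more against 5.46 or less in LacZ cells, and at 66.5 or more against 7.78 or less in RBMS3 cells. In RBMS3 cells the summed level of 8 epithelial markers was 10640 to 10827 normalized counts at 0 min. It was 3007 to 3571 at 90 min, 3357 to 3624 at 180 min and 4377 to 4722 at 360 min. In LacZ cells at 0 min it was 12716 to 13897. The labels call both lines epithelial; in RBMS3 cells CDH1 and CLDN4 were at 0 in all libraries of 180 and 360 min and TP63 in all of 90 and 180 min, while the keratins KRT5, KRT14, KRT8 and KRT18 stayed well above 0. Summed markers of other cell types were low, with at most 3.85 normalized counts for 4 leukocyte markers, 13.5 for 4 endothelial markers and 13.4 to 216 for 5 markers of pericytes and smooth muscle, the highest in a LacZ library. KRT14, a basal keratin, averaged 6059 normalized counts in the RBMS3 libraries of 0 min and 791 in those of 90 min. This moved together with the collagen changes between 0 and 90 min described below, and its part in them was not tested. Most differences between the lines at 0 min are therefore given with those at 360 min. In bulk RNA, fewer cells of a kind and less RNA per cell cannot be told apart.

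Before actinomycin D, RBMS3 cells held more RNA for most of the tested collagen genes. At 0 min, 27 of the 42 were higher and 6 lower in RBMS3 than in LacZ cells by limma, at a Benjamini-Hochberg adjusted p under 0.05 over all 12096 genes tested. Over all those genes 18.6% were called higher and 18.9% lower. The 27 were 12 of 22 chains and 15 of 20 enzymes. The median log2 difference was 1.21 over the 42 and 0.0065 over all tested genes. At 360 min 25 were higher and 6 lower, against 17.5% and 17.7% of all genes. At 90 min the counts were 24 and 4, against 14.9% and 15%, and at 180 min 23 and 6, against 16.2% and 16.8%. The set of 21 genes called higher at all 4 times held 9 chains, of types I, III, IV, V and VIII, and 12 enzymes. COL17A1, P3H2 and LOXL3 were lower at all 4 times, and COL4A5, COL6A1, COL7A1, COL12A1 and BMP1 were called at none in limma. These 4 comparisons share no library, but they compare the same lines in 1 fit with a shared estimate of the spread. Repeated calls are therefore not independent. COL18A1 was the 1 member called in opposite directions, higher at 0 min and lower at 90 and 180 min. None of the 33 calls at 0 min was lost when any 1 of the 6 libraries was left out, and 7 of the 31 at 360 min were. At 90 min 6 of the 28 calls were lost, among them PCOLCE and LOXL3, each in 4 of 6 fits. At 180 min 4 of the 29 were lost, among them LOXL3 in 1 of 6.

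**Figure D1:**
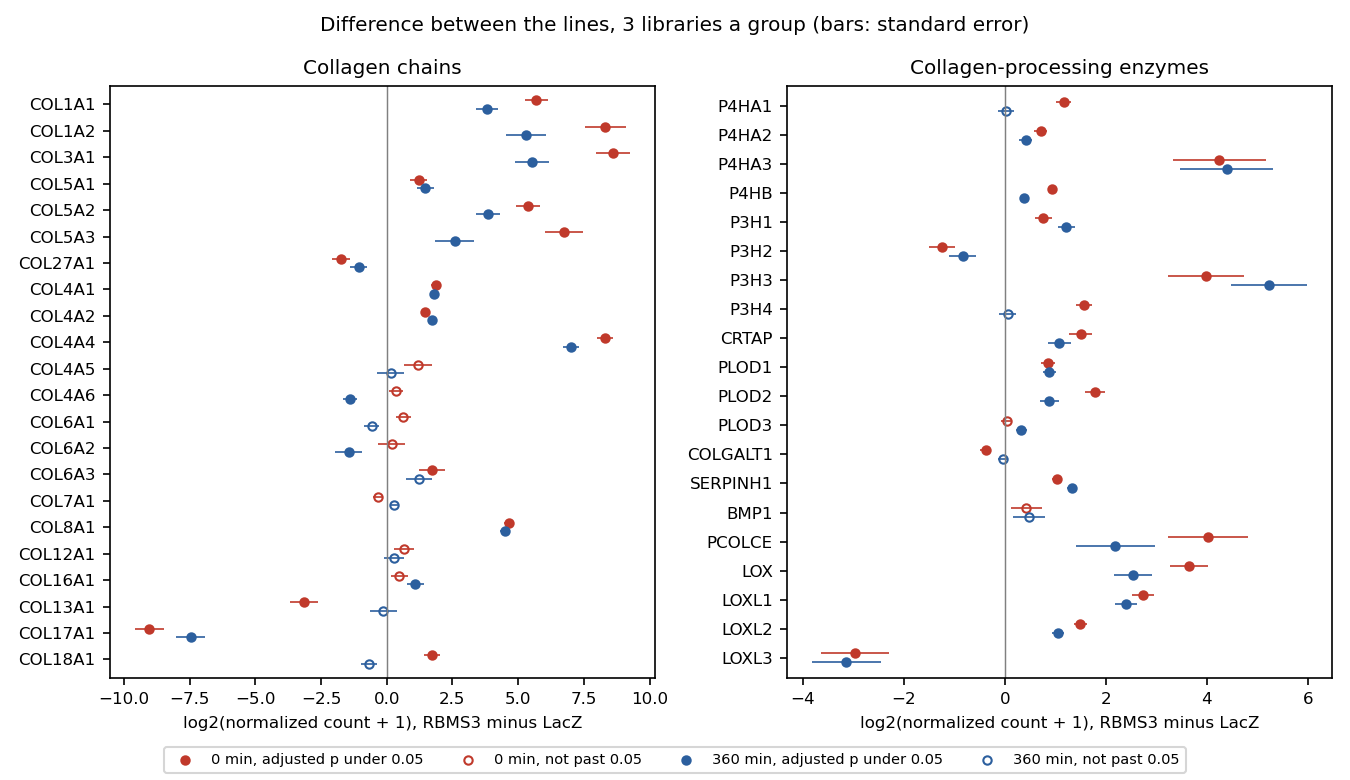
Difference between RBMS3 and LacZ cells in log2(normalized count + 1) for the 42 tested genes, at 0 min (red) and at 360 min (blue), with standard error bars and 3 libraries a group. Filled points passed an adjusted p of 0.05 in limma. Most points lie right of 0, with COL1A2 at 8.32, COL4A4 at 8.30 and COL3A1 at 8.60 (7.42 without its outlying library) at 0 min, and COL17A1 lies farthest left, at -9.03.

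The fibrillar chains form the striated fibrils of connective tissue. Of 11 such chains 7 were tested, and at 0 min 6 were higher and COL27A1 was lower, with a median log2 difference of 5.69. COL1A1, one of the chains of type I collagen, stood at 61.1, 38.2 and 46.4 normalized counts in LacZ cells and at 2557, 2445 and 2546 in RBMS3 cells. All 3 RBMS3 libraries lay far above all 3 LacZ libraries, a 51.8-fold difference of means (log2 5.69 ± 0.43, SE, limma adjusted p = 1.1e-09). COL1A2, its partner chain in type I collagen, stood at 0, 8.08 and 0 in LacZ cells and at 661, 626 and 718 in RBMS3 cells. The lines did not overlap (log2 8.32 ± 0.76, limma adjusted p = 2.2e-08). The LacZ mean rested on 1 library, and with 1 library left out the log2 difference ran from 7.79 to 9.39. At 360 min COL1A1 was 11.97-fold higher (97.5 the highest LacZ library, 574 the lowest RBMS3 library) and COL1A2 43-fold higher (9.64 and 257), both past the threshold in limma. Both type I chains were therefore higher in RBMS3 cells before and after actinomycin D.

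COL3A1, the chain of type III collagen, was listed at 0 in all 12 LacZ libraries. At 0 min it stood at 2000.1, 169 and 171 in RBMS3 cells. Replicate 1 was the outlier of this group. In the reads of the file named as that library the gene did not stand out, with 249, 205 and 206 scaled reads in the 3 libraries, so the table gave the gene in replicate 1 a factor of 8.03 where the others had 0.827. Without replicate 1 the mean was 170, at least 59.8-fold above the limit set by 3 reads in a LacZ library (log2 7.42, limma adjusted p = 1.87e-10); with it the bound was 275. At 360 min COL3A1 stood at 47.9, 44.2 and 44.3, at least 14.5-fold above that limit.

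The type V chains, which join type I in mixed fibrils, were all higher at 0 and 360 min. COL5A2 stood at 20.9, 4.78 and 19.4 in LacZ cells and at 556, 578 and 554 in RBMS3 cells at 0 min, with no overlap and a 37.5-fold ratio of means (log2 5.36 ± 0.46, limma adjusted p = 7.6e-09). At 360 min the ratio was 14.9-fold. COL5A3 was at 0 in all 3 LacZ libraries at 0 min, while RBMS3 cells held 126, 67.8 and 139, at least 39.0-fold higher. By 360 min it had reached 5.51, 2.28 and 8.99, at least 1.78-fold above the LacZ limit, and with a pseudocount of 10 the difference then no longer passed (log2 0.62). COL5A1 differed less, with 69.5, 126 and 59.3 in LacZ cells and 162, 182 and 226 in RBMS3 cells, again without overlap (2.23-fold, log2 1.22 ± 0.32, limma adjusted p = 0.0054). On the estimated reads, edgeR gave COL5A1 a larger log2 difference, 2.62 (adjusted p = 6.7e-12). COL27A1 ran the other way. This fibrillar chain, known from cartilage, stood at 444, 452 and 489 in LacZ cells and at 137, 129.8 and 144 in RBMS3 cells, 3.37-fold lower (log2 -1.74 ± 0.33, limma adjusted p = 0.00029). At 360 min COL27A1 was 1.87-fold lower, with LacZ values of 97.4, 125 and 81.4 overlapping the RBMS3 values of 21.2, 57.3 and 83.9, and the call was lost without LacZ 360 min replicate 2 (log2 -0.91) or RBMS3 360 min replicate 1 (-0.52).

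Type IV chains form the network of the basement membrane. Their genes lie in head-to-head pairs, and the pair that was higher throughout shares 1 short stretch between the start sites. That stretch is shown because COL4A1 and COL4A2 moved together here. The start sites lie 127 bases apart on chromosome 13, and the 126 bases between them, chr13:110307158-110307283 on the plus strand of GRCh38.p14, from RefSeq, are printed with CCAAT and GGGCGG matches in capitals.
COL4A1 to COL4A2: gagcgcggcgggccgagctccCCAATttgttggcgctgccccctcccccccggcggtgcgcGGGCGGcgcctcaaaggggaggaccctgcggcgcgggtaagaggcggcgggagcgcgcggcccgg
The other stretch is the 250 bases before the start of COL4A4 at chr2:227164206-227164455 on the minus strand, shown because this gene was at 0 in every LacZ library. Its start lies 419 bases from that of COL4A3. It held no match and so has no capitals.
COL4A4: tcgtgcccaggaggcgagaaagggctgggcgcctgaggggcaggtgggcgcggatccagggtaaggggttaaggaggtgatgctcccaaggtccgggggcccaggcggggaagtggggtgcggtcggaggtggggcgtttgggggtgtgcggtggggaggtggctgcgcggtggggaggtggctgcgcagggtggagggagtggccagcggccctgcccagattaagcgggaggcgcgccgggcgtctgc
Each motif was searched on both strands, and matches did not overlap in these stretches. The table held 35116 RefSeq windows of 300 bases (250 before and 50 after a start), 67 of them for the 50 members that had one. The motif CCAAT was found in 34.6% of all windows and in 29.9% of the members' windows. For the motif GGGCGG the shares were 45% and 56.7%. For the motif TATAAA they were 11.5% and 14.9%.

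COL4A1 stood at 327, 289.9 and 275 in LacZ cells and at 1073, 1079 and 1116 in RBMS3 cells at 0 min. The ratio was 3.66-fold at 0 min (log2 1.87 ± 0.19, limma adjusted p = 9e-08) and 3.51-fold at 360 min, and no library overlapped at either time. COL4A2 stood at 1119, 766 and 842 against 2468, 2455 and 2506, a ratio of 2.73 (log2 1.46 ± 0.15, limma adjusted p = 1.5e-07). At 360 min, COL4A2 stood at 949, 973 and 1121 in LacZ cells and 3266, 3286 and 3385 in RBMS3 cells, 3.27-fold higher. Both genes of the pair were thus higher at both ends of the time course. COL4A4, a chain of the network found in the glomerulus and other specialised basement membranes, was at 0 in all 12 LacZ libraries and at 315, 328 and 301 in RBMS3 cells at 0 min, at least 111-fold higher (log2 8.30 ± 0.31, limma adjusted p = 1.7e-14). At 360 min COL4A4 stood at 139, 139 and 109, at least 41.1-fold higher. Its neighbour COL4A3 was below the level tested. COL4A3 was at 0 in every LacZ library and at 67.7, 32.8 and 11.7 in RBMS3 cells at 0 min, at least 13.2-fold above the limit set by 3 reads.

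The other pair, COL4A5 and COL4A6, was not called higher at any time in limma. At 0 min all RBMS3 libraries of both genes lay above all LacZ libraries. COL4A5 stood at 74.3, 179 and 139 in LacZ cells and at 283, 206 and 389 in RBMS3 cells at 0 min and did not pass in limma (log2 1.20 ± 0.52, adjusted p = 0.080), though edgeR on the estimated reads called it (log2 1.09, adjusted p = 0.00017). COL4A6 did not pass at 0 min (log2 0.36 ± 0.27, limma adjusted p = 0.33) and was lower in RBMS3 cells at 360 min. There it stood at 105, 143 and 69.5 in LacZ cells and at 42.2, 33.4 and 38.4 in RBMS3 cells, 2.79-fold lower without overlap (log2 -1.40 ± 0.27, limma adjusted p = 0.00040).

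COL8A1, the chain of a short-chain network collagen known from vessel walls, was the steadiest of the strongly different chains. It stood at 86.7, 83.2 and 74.2 in LacZ cells and at 1899, 2188 and 2083 in RBMS3 cells at 0 min, 25.3-fold higher (log2 4.64 ± 0.18, limma adjusted p = 4.6e-14). At 360 min COL8A1 was 23.02-fold higher, with 83.3, 94.3 and 90.8 against 2002, 2258 and 1917. Type VI chains make beaded filaments around cells. COL6A3 was higher at 0 min, with 21, 25.1 and 16.6 against 56.6, 76.4 and 81.5 (3.42-fold, log2 1.73 ± 0.50, limma adjusted p = 0.0090), and did not pass at 360 min in limma (log2 1.22, adjusted p = 0.063), though edgeR called it there (0.95, adjusted p = 0.0071). COL6A1 passed at no time in limma, with 43.8 to 87.6 in LacZ cells and 81.5 to 112 in RBMS3 cells at 0 min. COL6A2, at 14.7 to 33.4 over both lines at 0 min, was lower in RBMS3 cells at 180 min, with 35.5, 25.7 and 25.5 against 5.83, 9.07 and 4.84 (4.39-fold lower, log2 -2.003 ± 0.51, limma adjusted p = 0.0045), a call kept in each of 6 fits with 1 library left out. COL6A2 was 2.57-fold lower in RBMS3 cells at 360 min, a call that 4 of the 6 fits with 1 library left out did not keep (log2 -0.96 to -1.52 in those 4).

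The fibril-associated chains COL12A1 and COL16A1 did not pass at 0 min in limma; edgeR called COL12A1 (log2 0.78, adjusted p = 0.0096). COL12A1 stood at 73.4, 178 and 118 in LacZ cells and at 176, 199 and 176 in RBMS3 cells. COL16A1 was 2.10-fold higher at 360 min, with 40.7, 43.1 and 64.4 against 112, 96.9 and 102 (log2 1.08 ± 0.33, limma adjusted p = 0.013), and the call was lost without LacZ 360 min replicate 1 (log2 0.96). COL7A1, the chain of the anchoring fibrils under the epidermis, stood at 437, 463 and 346 in LacZ cells and at 290.3, 370.4 and 316 in RBMS3 cells. The lines overlapped and limma called it at no time, while edgeR called it lower in RBMS3 cells at 0 min (log2 -0.43, adjusted p = 0.026). COL18A1, whose C-terminal end yields endostatin, stood at 62.8, 117 and 68.6 against 267, 282 and 240.3 at 0 min, 3.17-fold higher (log2 1.71 ± 0.31, limma adjusted p = 0.00015). After actinomycin D the order turned. At 90 min COL18A1 stood at 117, 96.2 and 77.5 in LacZ cells and at 65.1, 40.2 and 52.6 in RBMS3 cells, 1.84-fold lower (log2 -0.88 ± 0.31, limma adjusted p = 0.036), a call lost in 4 of 6 fits with 1 library left out (-0.70 to -0.89 in those 4). At 180 min it stood at 134, 86.5 and 115 against 41.9, 32.1 and 68.9, 2.35-fold lower (log2 -1.26 ± 0.31, limma adjusted p = 0.0031), a call kept in all 6. At 360 min COL18A1 stood at 96.7, 83 and 136 in LacZ cells and at 55.9, 88.2 and 54.3 in RBMS3 cells, which overlapped and did not pass (log2 -0.67, limma adjusted p = 0.099).

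COL17A1, the transmembrane collagen of hemidesmosomes, was the member with the widest difference downwards. The 250 bases before its start at chr10:104085881-104086130 on the minus strand of GRCh38.p14, from RefSeq, are shown because this gene was near 0 in the RBMS3 line, with TATAAA and the reverse complement of CCAAT in capitals.
COL17A1: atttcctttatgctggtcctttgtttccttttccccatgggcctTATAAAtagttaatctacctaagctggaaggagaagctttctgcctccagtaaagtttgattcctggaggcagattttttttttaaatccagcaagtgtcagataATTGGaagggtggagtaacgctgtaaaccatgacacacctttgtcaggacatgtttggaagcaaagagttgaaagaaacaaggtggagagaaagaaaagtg
COL17A1 stood at 1989.9, 1329 and 2153 in LacZ cells and at 0, 2.96 and 9.07 in RBMS3 cells at 0 min. The lowest LacZ library lay far above the highest RBMS3 library, a 455-fold lower mean in RBMS3 cells (log2 -9.03 ± 0.56, limma adjusted p = 5.3e-11). At 360 min COL17A1 stood at 1940.4, 1937 and 1739 against 11.9, 4.85 and 14.9, 177-fold lower. Of 8 epithelial markers, 6 were lower and 1 higher in RBMS3 cells at 0 min, and 8 of 8 lower at 360 min. Within RBMS3 cells COL17A1 averaged 4.01 at 0 min and 10.6 at 360 min. That rise was called, but the call was lost in 3 of 6 fits with 1 library left out. Over the same span 4 of the 8 markers were lower and 2 higher in RBMS3 cells. The summed level of the markers at 0 min was 10640 to 10827 there, against 12716 to 13897 in LacZ cells. Among them EPCAM averaged 1716 normalized counts at 0 min in LacZ cells, against 0.7 in RBMS3 cells. The part of those markers in the result was not tested. The other tested transmembrane chain, COL13A1, stood at 88.7, 78.8 and 22.9 in LacZ cells and at 6.88, 8.56 and 2.22 in RBMS3 cells at 0 min (log2 -3.16 ± 0.52, limma adjusted p = 6e-05). The reads recovered for COL13A1 were few and edgeR did not call it (log2 -0.95, adjusted p = 0.69), and at 360 min limma did not call it either (log2 -0.13, adjusted p = 0.87).

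With COL4A3, 22 chains and 2 enzymes lay below the level tested. COL6A5, COL6A6, COL9A1, COL10A1, COL14A1, COL20A1 and COL25A1 were listed at 0 in all 24 libraries. The cartilage chain COL2A1 did not exceed 4.77 normalized counts in any library, and COL11A1 and COL11A2, its fibril partners, did not exceed 5.49 and 6.15. The highest value of the fibril-associated COL9A2, COL9A3, COL19A1 and COL21A1 was 1.90, 4.81, 5.29 and 5.66. COL8A2, COL23A1, COL24A1, COL26A1, COL28A1 and COL15A1 reached 4.78, 2.28, 3.16, 3.64, 8.15 and 8.49, and COL22A1 reached 25.1. Of the enzymes, the lysyl oxidase LOXL4 did not exceed 5.07 and ADAMTS2, which removes the N-terminal propeptide of type I procollagen, did not exceed 7.35. COL22A1 was at 0 in all RBMS3 libraries of 90, 180 and 360 min and, with LacZ means of 13.3 at 180 min and 12.2 at 360 min, was at least 3.94-fold and 4.04-fold lower than in LacZ cells there, from LacZ libraries of 0.587 to 25.1 at 180 min and 0 to 19.0 at 360 min. Without the filter on low values, limma called 28 members higher and 7 lower at 0 min.

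All 4 prolyl 4-hydroxylase subunits, which hydroxylate proline so that the helix is stable at body temperature, were higher in RBMS3 cells at 0 min. P4HA1, the main catalytic subunit, stood at 466, 339.9 and 560.0 in LacZ cells and at 997, 957 and 1055 in RBMS3 cells, 2.20-fold higher (log2 1.17 ± 0.15, limma adjusted p = 2.9e-06). At 360 min P4HA1 stood at 643, 630.3 and 513 against 550.3, 599 and 659.9, which overlapped (log2 0.02, limma adjusted p = 0.93). P4HB, the shared beta subunit, also known as protein disulfide isomerase, stood at 1819, 1697 and 1769 against 3268, 3344 and 3444 at 0 min (1.90-fold, log2 0.93 ± 0.07, limma adjusted p = 4.5e-10). At 360 min P4HB was still higher, at 1.30-fold, without overlap. P4HA2, another catalytic subunit, stood at 609, 419.6 and 531 against 806, 858 and 868 at 0 min (1.62-fold), and its 1.34-fold difference at 360 min was lost in 3 of the 6 fits with 1 library left out (log2 0.37 to 0.39 in those 3). P4HA3, the remaining catalytic subunit, stood at 0, 0.777 and 8.14 in LacZ cells and at 38.3, 32.9 and 82.1 in RBMS3 cells, and at 6.21, 0 and 0.877 against 56.6, 45.3 and 46.4 at 360 min. Of the 4 subunits, 3 were therefore called higher at both times and P4HA1 at 0 min.

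In the prolyl 3-hydroxylase complex P3H1, CRTAP and a cyclophilin modify single prolines and chaperone the chains. Of the 5 genes listed under its name 4 were higher at 0 min, among them P3H1 and CRTAP, and P3H2 was lower. P3H1 stood at 135, 131 and 134 in LacZ cells and at 231, 205 and 246 in RBMS3 cells at 0 min (1.71-fold, log2 0.76 ± 0.17, limma adjusted p = 0.0011) and was 2.36-fold higher at 360 min. CRTAP stood at 540.0, 212 and 561 against 1118, 1069 and 1221 (2.60-fold, log2 1.5 ± 0.23, limma adjusted p = 2.3e-05), and at 360 min at 734, 649.9 and 715 against 1624, 1423 and 1399. P3H3 was close to 0 in LacZ cells, at 1.54, 6.64 and 18.8, and stood at 121, 82.5 and 151 in RBMS3 cells (13.1-fold, log2 3.99 ± 0.76, limma adjusted p = 0.00026). At 360 min P3H3 was 40.4-fold higher. P3H4, which works with P3H3 and the lysyl hydroxylase PLOD1, stood at 381, 409 and 238 against 929, 1049.9 and 996 at 0 min (2.89-fold, log2 1.57 ± 0.16, limma adjusted p = 1.5e-07) and overlapped at 360 min, at 594 to 687 against 615 to 705. P3H2, an isoform known for acting on basement membrane collagen, was lower, at 152, 202 and 134 against 108, 52.3 and 53.3 (2.29-fold lower, log2 -1.24 ± 0.26, limma adjusted p = 0.00072). At 360 min P3H2 was 1.80-fold lower, at 186, 193 and 144 against 95.8, 88.7 and 106, a call lost in 3 of the 6 fits with 1 library left out (log2 -0.76 to -0.78 in those 3).

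Of the lysyl hydroxylases, PLOD1 and PLOD2 were higher. PLOD2, which acts on the ends of the chains and so sets the kind of cross-link, stood at 892, 435 and 1031 in LacZ cells and at 2473, 2667 and 2488 in RBMS3 cells at 0 min (3.23-fold, log2 1.78 ± 0.19, limma adjusted p = 2.3e-07). At 360 min PLOD2 was 1.84-fold higher. PLOD1, which acts within the helix, stood at 383, 592 and 390.0 against 805, 814 and 814 (1.78-fold) and at 360 min at 424, 476 and 449 against 884, 794 and 817 (1.85-fold). PLOD3 did not pass at 0 min, with 523, 494 and 585 against 510.4, 553 and 586. At 360 min it was 1.25-fold higher in limma, a call lost in 4 of 6 fits with 1 library left out (log2 0.29 to 0.31 in those 4). COLGALT1, which adds galactose to hydroxylysine, was lower at 0 min, at 1261, 973 and 1423 against 926, 926 and 921 (1.319-fold lower, log2 -0.38 ± 0.10, limma adjusted p = 0.0055). At 360 min COLGALT1 overlapped, at 1351 to 1483 against 1363 to 1393. SERPINH1, the collagen chaperone, stood at 658, 507 and 679 against 1189.6, 1328 and 1231 (2.03-fold, log2 1.03 ± 0.10, limma adjusted p = 6.9e-08). At 360 min SERPINH1 stood at 588, 663 and 622 against 1668, 1637 and 1422, 2.52-fold higher.

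PCOLCE, which enhances removal of the C-terminal propeptide, stood at 11.5, 2.65 and 8.54 in LacZ cells and at 90, 136 and 148 in RBMS3 cells at 0 min (16.5-fold, log2 4.02 ± 0.79, limma adjusted p = 0.00036). At 360 min PCOLCE stood at 6.18, 6.65 and 8.91 against 28.7, 29 and 57. That 5.27-fold difference passed with all libraries (limma adjusted p = 0.035) and in none of the 6 fits with 1 left out. BMP1, the proteinase itself, was called at no time in limma, with 119.8, 256 and 162 against 173, 275 and 252 at 0 min (log2 0.42 ± 0.31, limma adjusted p = 0.31), while edgeR on the estimated reads called it at 0 min (log2 0.59, adjusted p = 0.0051) and at 360 min (1.10, adjusted p = 8.2e-06).

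Of the lysyl oxidases, LOX, LOXL1 and LOXL2 were higher and LOXL3 lower. LOX stood at 35.2, 34.8 and 48.2 in LacZ cells and at 521, 474 and 504 in RBMS3 cells at 0 min (12.7-fold, log2 3.65 ± 0.38, limma adjusted p = 1.3e-07). At 360 min LOX stood at 71.2, 59.5 and 32.5 against 464, 203 and 307 (5.96-fold). LOXL1, known for elastic fibres, stood at 54.8, 56.1 and 93.4 against 372, 479 and 504 (6.63-fold, log2 2.74 ± 0.22, limma adjusted p = 2.5e-09) and was 5.32-fold higher at 360 min. LOXL2 stood at 278, 198 and 247 against 624, 741 and 664 (2.81-fold, log2 1.49 ± 0.13, limma adjusted p = 6.1e-09) and was 2.08-fold higher at 360 min. LOXL3 stood at 56, 8.62 and 62.7 in LacZ cells and at 2.26, 2.52 and 5.4 in RBMS3 cells. At 360 min it stood at 40.9, 67.1 and 67.2 against 20, 2.2 and 3.25, 6.89-fold lower (log2 -3.14 ± 0.68, limma adjusted p = 0.0010). LOX and LOXL1 to LOXL3 thus each kept their libraries apart at both times.

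In LacZ cells few collagen genes changed relative to other transcripts by 90 min in actinomycin D, a share near that of all genes. At 90 min 1 of the 42 was higher and 2 lower than at 0 min in limma, against 3.44% and 2.74% of all genes, and from 90 to 360 min P4HB alone was higher and none lower, against 3.38% and 5.12%. That P4HB call (log2 0.23) was lost in 5 of 6 fits with 1 library left out and turned to -0.090 under scaling to ribosomal protein genes. No member had an unadjusted p under 0.05 for a fall over that span in limma, and 3 did in edgeR. COL27A1 fell from 444, 452 and 489 to 107, 173 and 174 at 90 min, 32.8% of its 0 min mean, and stood at 21.9% at 360 min (log2 -2.20 ± 0.33, limma adjusted p = 4.6e-05). COL7A1 fell from 437, 463 and 346 to 191, 184 and 220.0, or 47.8%, and stood at 40.3% at 360 min (log2 -1.34 ± 0.19, limma adjusted p = 1.6e-05). No later library of either gene reached its 0 min values. At 360 min 5 members were higher and these 2 lower than at 0 min, against 14.9% and 13.6% of all genes. P3H4 (log2 0.94 ± 0.16) and CRTAP (0.80 ± 0.23) kept their calls in every fit with 1 library left out, CRTAP at 0.34 without LacZ 0 min replicate 2. PLOD2 (0.60), P4HA1 (0.41) and LOXL2 (0.34) lost the call without LacZ 0 min replicate 2, at 0.22, 0.21 and 0.21. Scaled to ribosomal protein genes, P4HA1 and LOXL2 turned to -0.12 and -0.19. Under that scaling 0 members were higher and 9 lower at 360 than at 0 min, against 140 and 4555 of all 12096 genes.

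In RBMS3 cells more collagen genes were lower at 90 min than at 0 min. At 90 min 14 of the 42 were lower and 2 higher than at 0 min, against 6.52% and 7.99% of all genes tested, with a median log2 change of -0.48. The 14 were COL1A1, COL3A1, COL5A2, COL5A3, COL4A4, COL4A5, COL6A1, COL6A2, COL7A1, COL18A1, P4HA1, P4HB, P3H4 and LOXL2. Of these, COL3A1, COL5A3 and COL4A4 were at 0 in LacZ cells at 0 min and could not fall there. COL5A2 and COL6A2 were low there, with means of 15.0 and 22.2. The counts of falls in the lines are therefore not a like comparison. COL1A1 fell from 2557, 2445 and 2546 normalized counts to 690.0, 661 and 629.8, or 26.2% of its 0 min mean (log2 -1.93 ± 0.43, limma adjusted p = 0.0039). COL18A1 fell to 65.1, 40.2 and 52.6, or 20.01% (log2 -2.32 ± 0.31, limma adjusted p = 2.1e-05). COL4A4 fell to 128, 125 and 131, or 40.8%. P4HA1 fell to 481, 478 and 500.4, or 48.5% (log2 -1.04 ± 0.15, limma adjusted p = 6.3e-05). The libraries of the 2 times did not overlap for any of these 4 genes.

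COL3A1 fell in the table to 26.8, 41.4 and 36.6 at 90 min. On its scaled reads, where replicate 1 did not stand out, the 90 min mean was 42.2, or 19.2% of the 220 at 0 min. Without replicate 1 at 0 min limma gave a change of -2.27 (adjusted p = 0.0029) where it gave -3.46 with it. COL5A3 fell to 34.1, 3.7 and 8.06, or 13.8% of its 0 min mean (limma adjusted p = 0.0048). COL5A2 fell to 190.1, 175 and 217, or 34.5% (limma adjusted p = 0.027), a call lost in each of 6 fits with 1 library left out (log2 -1.47 to -1.62). COL1A2 had fallen by as much, to 264, 231 and 254 or 37.4%, without overlap, but did not pass in limma (log2 -1.42 ± 0.76, adjusted p = 0.24) and did in edgeR (-1.35, adjusted p = 0.0015). COL4A5 stood at 20.05% and kept its call in each of 6 fits with 1 library left out (log2 -2.03 to -2.49). P4HB stood at 66.7% and P3H4 at 63.5%. LOXL2 stood at 75.5% and lost its call in 5 of 6 fits with 1 library left out (log2 -0.34 to -0.45 in those 5), and COL6A1 and COL6A2 lost theirs in 4 of 6.

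Other members of the same groups did not pass for a fall. COL4A1 stood at 1062, 1106 and 2215 at 90 min against 1073, 1079 and 1116 at 0 min; the third of these libraries carried a factor of 2.03 in the table, and its scaled reads, 1090, lay below the 1157 and 1213 of the other 2. COL4A2 stood at 117% of its 0 min mean, COL8A1 at 88.2%, SERPINH1 at 92.4% and CRTAP at 100.2%, and none of these passed in limma. P3H1 rose from 231, 205 and 246 to 382, 321 and 382, or 159% (log2 0.67 ± 0.17, limma adjusted p = 0.0099). COL13A1 rose in the table from 6.88, 8.56 and 2.22 to 77.3, 42.4 and 49.9, but on the few reads recovered for it edgeR gave a change of -1.11 (adjusted p = 0.70).

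**Figure D2:**
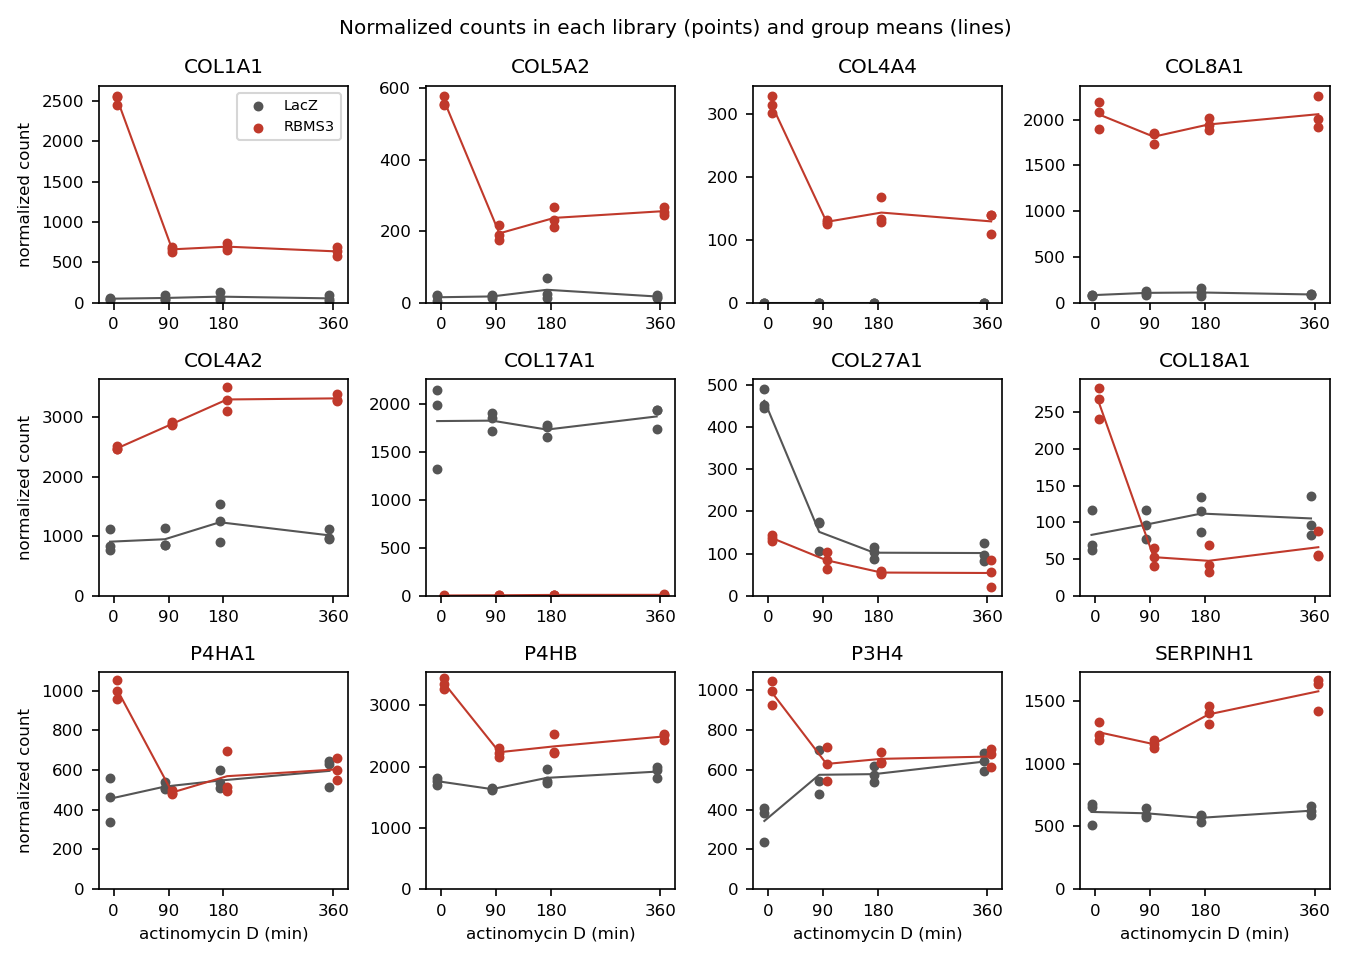
Normalized counts of 12 members in each library (points, 3 a group) and group means (lines) against minutes in actinomycin D, LacZ cells in grey and RBMS3 cells in red. In RBMS3 cells COL1A1 drops from a mean of 2516 to 660.2 by 90 min and is 634.4 at 360 min, and COL8A1 stays between 1813 and 2059 on average.

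After 90 min few members were called in RBMS3 cells. The median log2 change from 90 to 360 min was 0.23 over the 42 and 0.031 over all tested genes. From 90 to 360 min 2 members were higher, PLOD1 and SERPINH1, and 1 lower, COL4A6, against 7.62% and 8.35% of all genes. SERPINH1 rose from 1121, 1155 and 1188 to 1668, 1637 and 1422, without overlap (log2 0.45 ± 0.10, limma adjusted p = 0.0042). PLOD1 rose from 535, 633 and 671 to 884, 794 and 817 (0.44 ± 0.14), a call lost in 5 of 6 fits with 1 library left out (log2 0.35 to 0.48 in those 5). COL4A6 fell from 63.1, 72.2 and 79.9 to 42.2, 33.4 and 38.4 (-0.90 ± 0.27) and lost its call in 4 of those 6 (-0.81 to -0.91). COL1A1 at 360 min stood at 96.1% of its 90 min mean. Other members that were not called moved further in both directions. COL4A5 stood at 207.5% of its 90 min mean and P4HA3 at 270.2%, while COL4A1 stood at 75.6% and COL5A3 at 36.6%. Between 0 and 360 min, 13 members were lower and 7 higher in RBMS3 cells, against 18.6% and 19.1% of all genes. The 13 included COL1A1, COL3A1, COL5A3, COL27A1, COL4A4, COL7A1, COL18A1, P4HA1, P4HB and P3H4. Most of the 7 depended on the scaling. With libraries scaled to ribosomal protein genes, 1 member was higher and 20 lower over that span, against 773 and 3839 of all 12096 genes. Among the 7, COL4A2 (log2 0.42), PLOD3 (0.31) and SERPINH1 (0.33) then stood at 0.033, -0.080 and -0.058. COL4A2 lost its call in each of the 6 fits with 1 library left out (0.40 to 0.43), PLOD3 in 5 and SERPINH1 in 3.

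**Figure D3:**
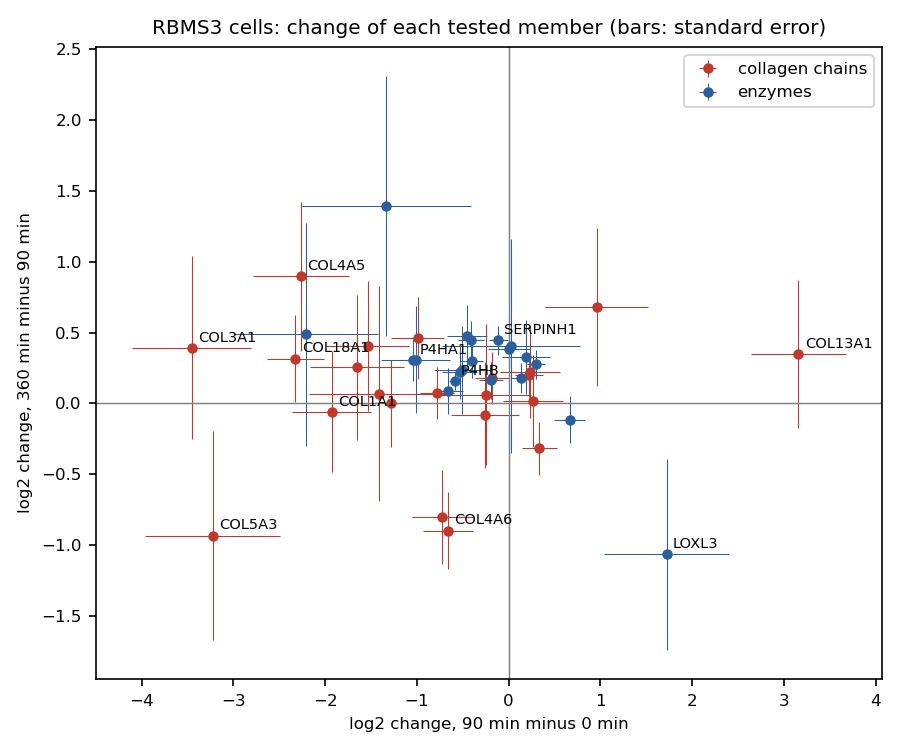
Log2 change of each of the 42 tested members in RBMS3 cells from 0 to 90 min (horizontal) and from 90 to 360 min (vertical), chains in red and enzymes in blue, with standard error bars. Far to the left lie COL3A1 at -3.46 (-2.27 without its outlying library), COL5A3 at -3.22, COL18A1 at -2.32 and COL1A1 at -1.93. COL4A5 also lies there, and SERPINH1 lies at 0.45 on the vertical axis.

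The difference between the lines in these changes was tested directly. For the step from 0 to 90 min, 9 members changed more downwards in RBMS3 than in LacZ cells and 2 more upwards, against 2.52% and 2.71% of all genes. The 9 were COL1A1, COL3A1, COL5A3, COL18A1, P4HA1, P4HB, P3H4, PLOD2 and LOXL2. COL3A1 and COL5A3 were at 0 in LacZ cells at 0 min and could not fall there, so their values do not compare a fall between the lines. COL3A1 stayed at 0 in LacZ cells at 90 min, and COL5A3 stood there at 0, 1.68 and 3.57. COL18A1 had the lowest adjusted p of the chains (log2 difference of changes -2.58 ± 0.43, limma adjusted p = 0.00096), and in LacZ cells it stood at 117, 96.2 and 77.5 at 90 min against 62.8, 117 and 68.6 at 0 min. P3H4 had a difference of -1.43 ± 0.23 (limma adjusted p = 0.00064) and P4HA1 of -1.25 ± 0.21 (limma adjusted p = 0.0011). The call on COL1A1 (-2.11 ± 0.60, limma adjusted p = 0.047) was lost in 10 of 12 fits with 1 library left out (-1.75 to -2.23 in those 10). For LOXL2 it was lost in 10 (-0.48 to -0.74 over the 12 fits) and for PLOD2 in 8 (-0.64 to -1.26). Of the 2 upward members, P3H1 (0.91) lost it in 5 (0.80 to 1.03) and COL13A1 (2.74) in 7 (2.26 to 3.35).

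A straight line through all 4 times had a slope that differed between the lines for 6 members, 5 lower and 1 higher in RBMS3 cells, against 2.24% and 2.93% of all genes. The difference in slope, in log2 per hour, was -0.32 for COL18A1, -0.27 for COL4A6, -0.20 for P3H4, -0.15 for P4HA1 and -0.078 for P4HB. COL13A1 had a slope difference of 0.41, lost in 17 of 24 fits with 1 library left out. Over 90 to 360 min alone, a fit added after the data were seen, no member was called in limma, where of all 12096 genes 1 was called higher and 2 lower; 1 member had a higher and 1 a lower slope at an unadjusted p under 0.05, and COL18A1 and P4HA1 had slope differences of 0.068 and 0.019. COL4A6 had a difference of -0.19 there. The slope differences of the other lower members, P3H4 and P4HB, were -0.022 and -0.013 without the 0 min libraries.

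**Figure D4:**
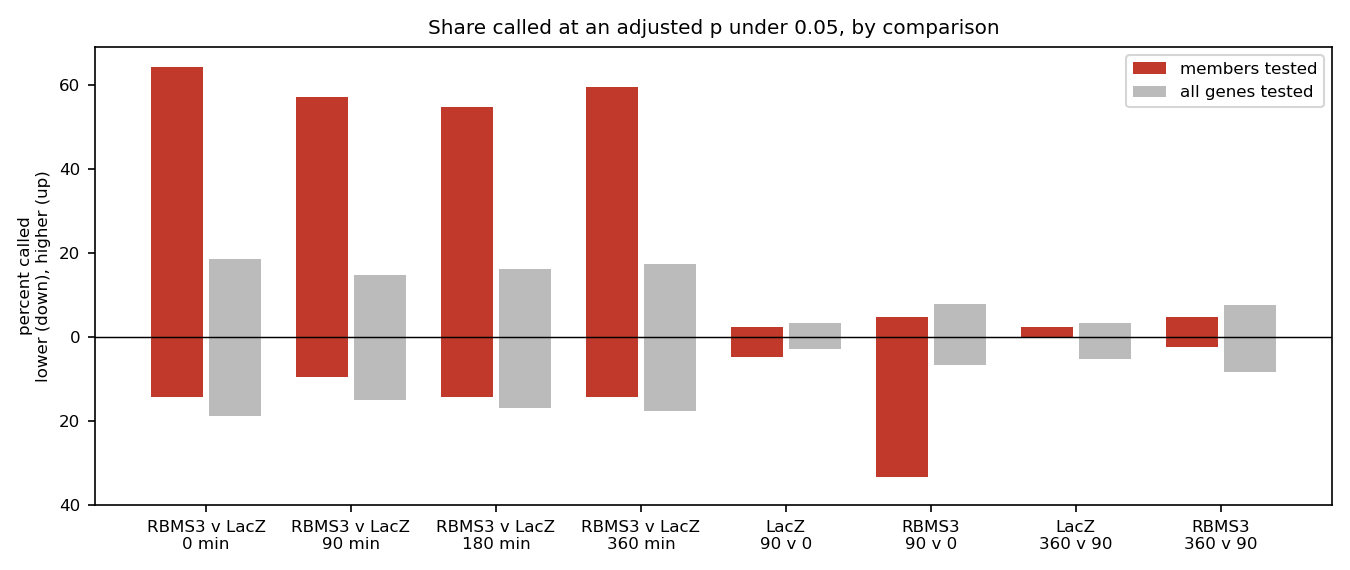
Percent of the 42 tested members (red) and of all 12096 tested genes (grey) called higher (up) or lower (down) at an adjusted p under 0.05 in limma, by comparison. Members stand above all genes for higher calls between the lines at each of the 4 times, with 64.3% against 18.6% at 0 min, and for lower calls in RBMS3 cells at 90 against 0 min, with 33.3% against 6.52%.

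Genes that work with collagen outside this set were counted by list. Of 18 tested folding and secretion factors 11 were higher and 1 lower at 0 min, and 11 and 2 at 360 min. CREB3L1, a transcription factor known to act on collagen genes, stood at 4.20 to 12.1 normalized counts in LacZ cells and at 76.5 to 96.9 in RBMS3 cells (log2 3.40 at 0 min, 2.06 at 360 min). KDELR3, a retrieval receptor of the secretory pathway, stood at 25.4 to 64.8 against 287 to 351 (log2 3.01, then 1.47). SPARC, a collagen-binding glycoprotein, stood at 627 to 788 against 3092 to 3288 (log2 2.20, then 1.65), and SEC23A, a coat subunit of the vesicles that carry procollagen, at 160 to 254 against 427 to 522 (log2 1.24, then 0.81). Both tested small leucine-rich proteoglycans, of 11 listed, were higher. BGN stood at 0 to 1.66 against 1452 to 1639 at 0 min and at 305 to 445 in RBMS3 cells at 360 min (log2 10.12, then 7.43). DCN stood at 0 to 3.46 against 160 to 172, and at 13.6 to 66.6 in RBMS3 cells at 360 min (log2 6.68, then 4.91).

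Collagen receptors went both ways, with 5 of 7 tested higher and 2 lower at 0 min and 3 and 3 at 360 min. ITGA2, a subunit of the main epithelial collagen integrin, stood at 1260 to 1575 in LacZ cells and at 171 to 220 in RBMS3 cells at 0 min (log2 -2.82, and -2.59 at 360 min), and DDR1, the receptor tyrosine kinase of epithelia, at 939 to 1020 against 143 to 178 (log2 -2.59, then -2.60). DDR2, the related kinase of mesenchymal cells, stood at 1.42 to 36.4 against 46.8 to 171 (log2 3.36, then 4.22), and MRC2, an endocytic collagen receptor, at 176 to 274 against 1076 to 1358 (log2 2.59, then 1.69). Of 6 tested collagen-degrading proteases 4 were higher and 2 lower at both times. MMP2 (log2 4.22, then 2.25) and MMP1 (2.18, then 2.87) were higher, and MMP9 (-6.40, then -7.24) and MMP14 (-1.87, then -1.42) lower. Of 10 tested collagen-binding matrix partners 3 were higher and 1 lower at 0 min, with NID1 at 0 in the LacZ libraries and at 506 to 536 in the RBMS3 libraries, FN1 at 2514 to 4204 against 29284 to 31863, FBLN1 at 87.0 to 199 against 604 to 773, and VWA1 lower at 85.5 to 151 against 10.3 to 13.6. PYCR1 was the 1 of 4 proline synthesis genes that passed at 0 min (log2 1.09, then 1.47). Of 3 other processing genes tested TLL1 and PCOLCE2 were higher at 0 min (log2 3.18 and 1.35), and at 360 min neither passed (-0.01 and 0.50). The lists were small and their counts were read beside the 18.6% and 18.9% of all genes called at 0 min.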

How the data were processed

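Reads were trimmed with Trim Galore 0.6.6 and quantified with Salmon 1.4.0, and DESeq2 1.32.0 was used, per the submitters' processing notes (build and annotation: not given in the sources used here). A deposited table holds a normalized read signal, called the normalized count here, for 38849 genes in 24 libraries. The deposited transcript files hold Salmon's estimated counts. From these, gene sums were made by transcript name (88.4% of 231288 transcripts matched) and rounded, and the value of 1 read in each table column was taken as its most frequent value above 0. Against the gene sums the table carries a gene-and-library factor (over 8835 genes its range between libraries had a median of 1.36-fold), so the table was not treated as counts. The range was over 1.5-fold for 44.1% of those genes. Among members, over libraries with at least 10 reads, it was 9.71-fold for COL3A1, 6.42 for COL6A3, 4.44 for COL5A1 and 2.90 for COL1A1. For COL1A2 and SERPINH1 it was 1.001 and 1.04. Printed values of members with a wide range therefore differ from their read levels.

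Tests ran on log2(normalized count + 1) with limma 3.58.1 in R 4.3.3, with trend on, 1 fit of the 8 group means, a filter at a mean of 10 (12096 genes) and Benjamini-Hochberg adjustment over all genes tested, with calls at 0.05. Fold changes are ratios of group means. A fold change on the log2 scale with the pseudocount understates changes of low genes. Against a group at 0, bounds used 3 reads per library and cover counting error only. edgeR 4.0.16 (quasi-likelihood test on the rounded estimated counts of the file named as the column) was an alternative added after the data were seen. The scripts were tested on simulated data.

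Library values are printed, though not at every time, for members called between the lines at 0 or 360 min if the higher group averaged 50 or more. The same holds for members whose slope differed. From each list of partner genes up to 4 with the largest log2 difference at 0 min, a mean of at least 50 and no overlap are named, as ranges. The members and lists were chosen with earlier results of these data known. Alternatives were pseudocounts of 10 and 0.25, other filters, ribosomal protein and quantile scaling, robust limma, a replicate block and leaving out each library.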

Additional observations from a re-analysis of the deposited data

Results flagged for a closer look

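Several members changed over time in actinomycin D by an amount that differed between RBMS3 and LacZ cells when that difference was itself tested with limma. Between 0 and 90 min the difference of the log2 changes, RBMS3 minus LacZ, was -2.58 for COL18A1 and -2.11 for COL1A1 among the chains. The values of -4.43 for COL5A3 and -3.46 for COL3A1 (-2.27 without RBMS3 0 min replicate 1) also passed, but both genes were at 0 in LacZ cells at 0 min and could not fall there, so these values do not compare a fall between the lines. Among the enzymes it was -1.43 for P3H4, -1.25 for P4HA1, -1.02 for PLOD2, -0.61 for LOXL2 and -0.48 for P4HB, and it was 0.91 for P3H1. COL13A1 had 2.74 in limma and -1.98 in edgeR on the few reads recovered for it. Each of these limma calls was refitted with 1 library left out, in 12 fits. The call was lost in 10 for COL1A1 and LOXL2, 8 for PLOD2, 7 for COL13A1 and 5 for P3H1 and COL3A1. No fit lost it for COL5A3, COL18A1, P3H4, P4HA1 or P4HB.

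The slope over all 4 times differed by -0.32 log2 units per hour for COL18A1, -0.27 for COL4A6, -0.20 for P3H4, -0.15 for P4HA1 and -0.078 for P4HB, and by 0.41 for COL13A1. The slope call on COL13A1 was lost in 17 of 24 fits with 1 library left out. The RBMS3 0 min libraries, which carried far more KRT14 than the later RBMS3 libraries, enter all of these values. Their part was not tested.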

How the results depend on the processing

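The counts of members called between the lines stayed within 1.5 times of the reported ones under every alternative that kept all libraries. The replicate numbers did not pair the libraries: over 84 same-numbered pairs the correlation of deviations ran from -0.11 to 0.116. With the replicate block, the LacZ 360 against 0 min higher count went from 5 to 3 and the higher slope count from 1 to 0 (5 at an unadjusted p under 0.05), and other counts stayed within 1.5 times. Scaling to 81 ribosomal protein genes put the median log2 difference of all genes at -0.29 between the lines at 0 min. From 0 to 360 min it put the median at -0.39 in RBMS3 and -0.49 in LacZ cells. At 0 min it split all called genes 1350 higher and 3810 lower, against 2250 and 2284, and the members 27 and 7. Under it, the LacZ 360 against 0 min counts became 0 higher and 9 lower, LacZ 90 against 0 min 4 lower, LacZ 360 against 90 min 0 higher and 2 lower, RBMS3 360 against 0 min 1 higher and 20 lower, RBMS3 360 against 90 min 0 and 5, the slope 2 higher, and the difference in the 0 to 90 min change 5 lower. LOXL2 (-0.19) and P4HA1 (-0.12) in LacZ cells and PLOD3 (-0.080) and SERPINH1 (-0.058) in RBMS3 cells from 0 to 360 min, and P4HB (-0.090) in LacZ cells from 90 to 360 min, changed sign. Without the filter, LacZ 360 against 0 min had 3 higher, LacZ 360 against 90 min 0, RBMS3 360 against 90 min 1, and the difference in the 0 to 90 min change 1 higher. A pseudocount of 10 gave 1 higher for that difference, and 0 higher and 8 lower slopes. Quantile normalization gave 0 and 0 for RBMS3 360 against 90 min and 0 higher for LacZ 360 against 90 min. edgeR gave 0 higher for LacZ 90 against 0 min and 360 against 90 min, and on 12 libraries with agreeing files 1 higher for RBMS3 360 against 90 min; it reversed COL13A1 in RBMS3 cells from 0 to 90 min (-1.11) and in the difference of that change (-1.98). The slope over 90 to 360 min alone gave 0 higher and 0 lower, with COL18A1 at 0.068 and P4HA1 at 0.019, both reversed. The cause was not tested.

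With 1 library left out, counts of higher and of lower members ranged, between the lines, from 27 to 28 and 6 to 6 at 0 min, 21 to 23 and 2 to 5 at 90 min, 22 to 23 and 5 to 6 at 180 min, and 22 to 26 and 3 to 6 at 360 min. They ranged from 2 to 6 and 2 to 2 for LacZ 360 against 0 min, 1 to 4 and 2 to 2 for LacZ 90 against 0 min, and 0 to 1 and 0 to 0 for LacZ 360 against 90 min. For RBMS3 cells they ranged from 3 to 6 and 11 to 13 for 360 against 0 min, 2 to 3 and 10 to 12 for 90 against 0 min, and 1 to 2 and 0 to 1 for 360 against 90 min. They ranged from 0 to 2 and 5 to 6 for the slope and 0 to 2 and 5 to 10 for the difference in the 0 to 90 min change. The 24 members below a mean of 10 were outside the main test, and the part of depth in their low values was not tested.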
